A study of Mus musculus with 28 samples.

Results

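Mice fed a cystine diet were compared with mice fed a control diet in one sorted fraction of the small intestine, the cells with a low signal of the Lgr5-GFP reporter. The comparison takes all 7 Lgr5-low libraries of each diet, 14 of the 28 libraries of the series. The other 14, 7 per diet, are Lgr5-high cells, and they serve here only to show where the diet difference in Lgr5-low cells stands apart. Every group carries the same Lgr5-GFP genotype, in which green fluorescent protein reports the stem cell receptor gene Lgr5, so as labelled the groups differ in the sorted fraction and the diet. The labels give no age, sex, number of animals, cystine dose or feeding time, and do not say whether a library is 1 animal, and the p-values cover the spread among libraries, which may be technical. The design text speaks of the small intestine and the extraction protocol of organoids, so that the source of the RNA remains uncertain. The study's title ties dietary cysteine to stem cell function and to interleukin 22 made by CD8 T cells, and the question here is what the diet changed outside the stem cell gate.

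Lgr5-low cells are the progeny of crypt stem cells, a mixture of dividing progenitors, enterocytes and the secretory goblet, Paneth, tuft and enteroendocrine cells. Cystine is a pair of cysteine molecules joined by a disulfide bond. Once reduced inside a cell, cysteine is built into proteins, into the antioxidant glutathione and into coenzyme A, or it is broken down to taurine, sulfate and sulfide. Metallothioneins are small proteins made up to a large part of cysteine, which bind zinc and copper, and their genes are switched on by the zinc sensor MTF1. Interleukin 22 acts on epithelial cells through the receptor chain Il22ra1 and the transcription factor STAT3, which drives antimicrobial lectins of the Reg3 family and stem cell renewal.

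The promoters of both metallothionein genes that the intestine expresses are shown first, because the mean levels of both genes were higher on cystine in both sorted fractions and no other gene of the zinc list had an unadjusted p under 0.05. They are neighbours on chromosome 8 (Mt1 at 94179082 to 94180327 and Mt2 at 94172664 to 94173568, GRCm38, both on the plus strand). Each sequence is the 250 bases before the RefSeq transcript start (GRCm38.p6), at chr8:94178839-94179088 for Mt1 and chr8:94172368-94172617 for Mt2, on the plus strand, and capitals mark matches to the metal response element core.
Mt1: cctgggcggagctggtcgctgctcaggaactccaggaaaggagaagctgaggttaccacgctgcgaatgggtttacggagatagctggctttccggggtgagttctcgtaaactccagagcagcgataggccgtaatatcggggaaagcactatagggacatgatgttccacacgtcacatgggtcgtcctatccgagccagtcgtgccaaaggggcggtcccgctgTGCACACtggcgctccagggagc
Mt2: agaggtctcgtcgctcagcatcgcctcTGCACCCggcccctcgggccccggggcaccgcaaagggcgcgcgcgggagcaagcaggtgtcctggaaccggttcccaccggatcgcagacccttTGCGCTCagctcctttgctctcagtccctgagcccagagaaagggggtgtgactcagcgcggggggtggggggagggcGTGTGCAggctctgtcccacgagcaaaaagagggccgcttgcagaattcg
The core, to which MTF1 binds, was searched on both strands as TGCACNC and TGCGCNC, 7 bases each, which cannot both match the same bases. Mt1 held 1 match, from 23 to 17 bases before the start, and Mt2 held 3, the nearest on the minus strand from 50 to 44 bases before the start. Of 32851 promoter windows of this length, 21.4% held at least 1 match and 1.26% at least 3. The windows sit differently on the genes as placed above. The Mt1 window ends inside its gene (at 94179088, with a gene start of 94179082) and the Mt2 window before its gene (at 94172617, with a gene start of 94172664). The counts of 1 and 3 are therefore not a comparison of the genes, and bases outside the windows were not searched. A match is a run of letters and was not tested as a binding site.

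The sort held on both diets. Lgr5 (chromosome 10, 115450311 to 115587780) was lower in Lgr5-low than in Lgr5-high cells, by a log2 fold change of -2.99 ± 0.43 (SE) on the control diet and -1.96 ± 0.42 on the cystine diet (edgeR adjusted p = 9.85e-05 and 0.00614). Depth in Lgr5-low cells ran from 3.09 to 18.9 M counts (M, mega) on the control diet (8.53 ± 5.3, SD, n = 7) and from 4.11 to 21.5 M on the cystine diet (13.6 ± 6.24). The difference of 0.70 on the log2 scale gave a two-sided exact permutation p of 0.15, and 0.0431 without cystine replicate 1 (difference 0.96). Mitochondrially encoded transcripts took 16.9 ± 1.505% of the counts on control and 15.5 ± 1.71% on cystine diet (exact permutation p = 0.139). By the level of Xist, control replicates 4 to 7 and cystine replicates 3 to 7 form a female class, so that each diet holds both classes in unequal numbers (4 female and 3 male against 5 and 2).

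No gene passed the test of diet in Lgr5-low cells, and the median size of the log2 fold change over all genes was 0.24. In edgeR 0 of 12495 genes (0%) had an adjusted p under 0.05, in either direction, and the lowest adjusted p was 0.598. An unadjusted p under 0.05 was found for 371 genes (2.97%), of which 219 (1.75% of the genes tested) were higher on cystine and 152 (1.22%) lower. Uniform p-values would give 625. Positive log2 fold changes made up 6193 genes (49.6%), and the median of all genes was -0.004. The counts given below for gene lists are to be read beside these shares of all genes. In Lgr5-high cells, fitted in the same model, 21 genes (0.168%) passed, all of them higher on cystine. The difference between the diet effects of the populations passed for 0 genes (0%, 415 with an unadjusted p under 0.05 in edgeR, and 0 passing with DESeq2 and 6 with limma-voom), so in edgeR no gene's diet response was shown to be particular to Lgr5-low cells.

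How precisely the log2 fold change of a single gene was measured depended on its level. Levels are given throughout as CPM, counts per M counts of the library after TMM scaling. For the 1072 genes with a mean of at least 100 CPM the median half-width of the 95% interval of the log2 fold change was 0.38. It was 0.57 for the 4785 genes between 10 and 100 CPM, 1.31 for the 5581 genes between 1 and 10 CPM and 2.42 for the 1057 genes below 1 CPM. A log2 fold change beyond 1 in size was fitted for 3 genes of the highest class, 22 of the second and 624 of the third. Changes near 2-fold were therefore within the error for most genes under 10 CPM, and not detectable at this depth and spread. The intervals are not adjusted for the number of genes tested, so a call needed a larger change than these widths. Mt2, with a mean of 39.5 CPM, was not called in edgeR at a log2 fold change of 2.07.

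**Figure D1:**
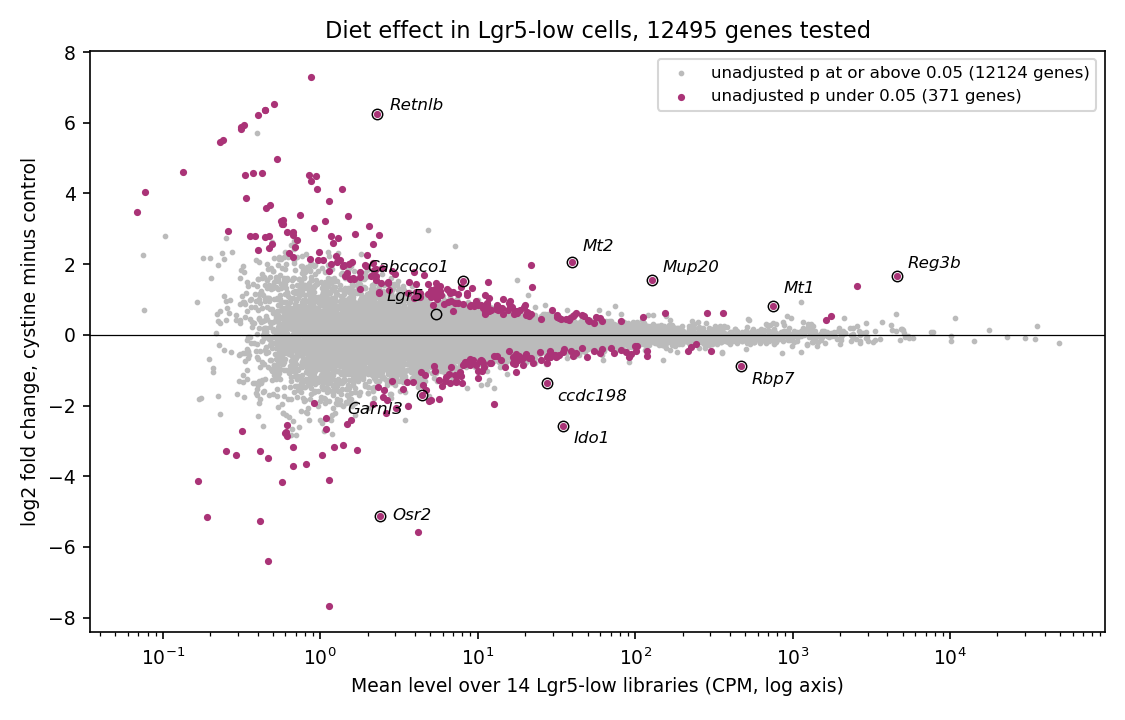
Diet effect in Lgr5-low cells. Each point is a gene, with its mean level over 14 Lgr5-low libraries (CPM, log axis) on the x axis and its log2 fold change, cystine minus control, on the y axis; 371 genes with an unadjusted p under 0.05 are coloured and 12 genes described in the text are circled. The spread narrows with level, and Mt1, Mt2, Mup20, Reg3b, Rbp7 and Ido1 lie outside the bulk of genes of their level.

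Other methods called a few genes. DESeq2 gave an adjusted p under 0.05 to 10 of 14420 genes that received one (0.0693%), 4 higher and 6 lower, and limma-voom with sample quality weights to 1 of 12495 (0.008%). The genes that DESeq2 called and that have ordinary names on an autosome were Garnl3, Osr2, Cabcoco1, Ide and ccdc198, and the limma-voom call was Mt2. These 6 genes are described below with their value in every library. The groups did not overlap, all 7 cystine libraries lying on one side of all 7 control libraries, for 8 genes (0.064%), and they include Ide and Garnl3. Among 12495 genes a random ordering of the libraries would also separate some, so the lack of overlap is not read as support.

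For both metallothionein genes all 7 cystine libraries lay above the control median, and neither gene passed the edgeR test. Mt2 measured 15.4, 23.4, 25.3, 2.10, 3.48, 2.88 and 36.7 CPM in control replicates 1 to 7 and 76.4, 59.6, 68.2, 106, 64.3, 51.5 and 18.6 CPM in cystine replicates 1 to 7. Of the cystine libraries, 6 lay above every control library, and replicate 7 lay between control replicates 2 and 1. The means were 15.6 ± 13.5 and 63.5 ± 26.3 CPM (SD, n = 7), a log2 fold change of 2.07 ± 0.57 (SE, 95% interval 0.90 to 3.24). In edgeR the unadjusted p was 0.00124 and the adjusted p 1.0, whereas limma-voom gave a log2 fold change of 3.83 and an adjusted p of 0.00532 and DESeq2 an adjusted p of 0.0612. Female control libraries 4 to 6 held the lowest values. Within the female class the log2 fold change was 2.63 and within the male class 1.67 (edgeR adjusted p = 0.401 and 0.19).

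Mt1, the second metallothionein gene, showed the same order of the diets. Its levels were 679, 787, 913, 248, 339, 338 and 491 CPM in control replicates 1 to 7 and 1585, 881, 750, 1027, 794, 909 and 747 CPM in cystine replicates 1 to 7. Cystine replicates 1 and 4 lay above every control library, and the other 5 lay below control replicate 3, of the male class. The log2 fold change was 0.82 ± 0.24 (SE, 542 ± 254 against 956 ± 294 CPM, unadjusted p = 0.00164). Within the female class the levels ran from 248 to 491 CPM in 4 control and from 747 to 1027 CPM in 5 cystine libraries. The log2 fold change there was 1.25 (edgeR adjusted p = 0.186). How many of all genes separate in this smaller split was not counted, so the gap is not read as support. With a term for the sex class the edgeR adjusted p of Mt1 was 0.0949, the lowest of all genes in that fit. In Lgr5-high cells the log2 fold changes were 1.0 for Mt1 and 2.281 for Mt2 (adjusted p = 0.0773 and 0.136), and the differences between the populations, -0.18 ± 0.34 and -0.21 ± 0.77 (SE), were smaller than their errors.

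The list of metallothionein and zinc genes had 9 tested members, 7 of them positive (median log2 fold change 0.35, beside -0.004 over all genes), with 0 past the threshold and an unadjusted p under 0.05 for Mt1 and Mt2 alone. Mtf1, the zinc-sensing factor that binds the core printed above, stood at 10.4 ± 6.83 CPM on control and 6.99 ± 1.29 CPM on cystine (log2 fold change -0.55, 95% interval -1.52 to 0.41). Slc30a10, a manganese exporter, measured 1.51 ± 1.64 and 3.51 ± 5.07 CPM (unadjusted p = 0.282).

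**Figure D2:**
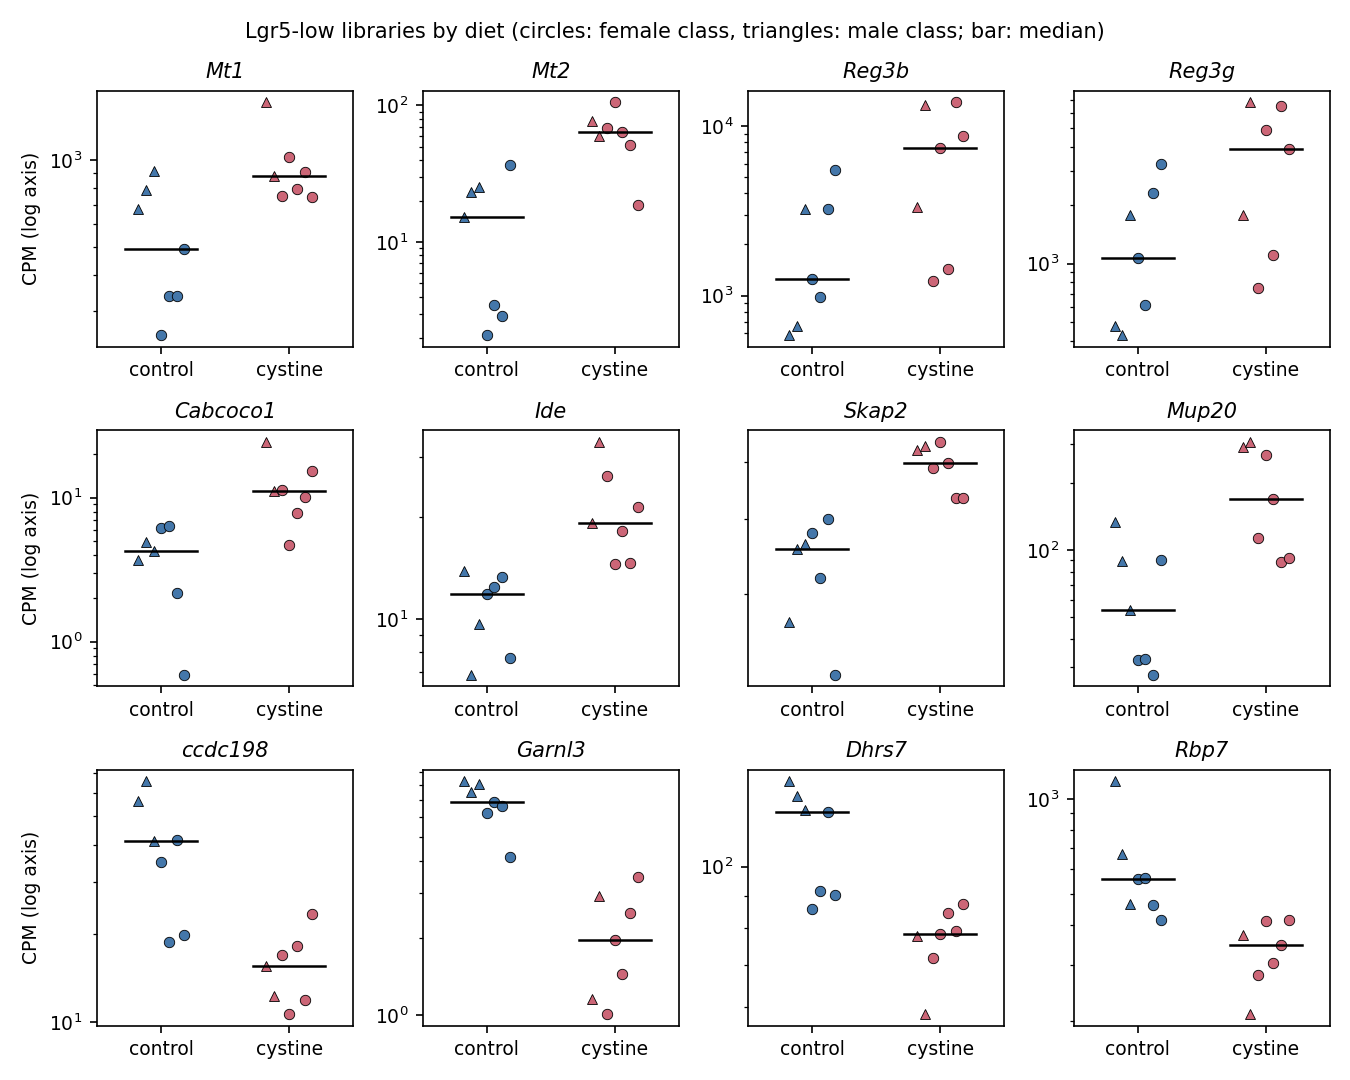
Level of 12 genes in the 14 Lgr5-low libraries. Each point is a library (CPM, log axis), control on the left and cystine on the right, circles for the female and triangles for the male class, and the bar is the median of 7 libraries. Ide, Skap2 and Garnl3 do not overlap between the diets, while 6 cystine libraries of Mt2 lie above every control library and Reg3b and Reg3g overlap widely.

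Targets of interleukin 22 split. The genes of the antimicrobial lectins Reg3b (chromosome 6, 78370657 to 78373466) and Reg3g (78466269 to 78468872) had higher means on cystine, with wide and overlapping ranges. Reg3b ran from 586 to 5520 CPM on control (median 1257) and from 1223 to 13798 CPM on cystine (median 7406). Control replicates 3, 6 and 7 were the highest of their group, at 3231, 3246 and 5520 CPM, and cystine replicates 3 and 5 the lowest of theirs, at 1223 and 1439 CPM. The log2 fold change was 1.67 ± 0.70 (SE, unadjusted p = 0.0251, 6 of 7 cystine libraries above the control median). Reg3g ran from 428 to 3258 CPM on control (median 1072) and from 748 to 6805 CPM on cystine (median 3886), a log2 fold change of 1.37 ± 0.63 (unadjusted p = 0.0384). The same 3 control replicates were the highest and the same 2 cystine replicates the lowest in Reg3g. With a score of Kupffer cell genes in the model the log2 fold changes were 1.32 for Reg3b and 1.12 for Reg3g.

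Retnlb, a goblet cell resistin-like protein with antibacterial action, was seen in few control counts. It had 2 counts in 1 of 7 control libraries and 215 counts in 6 of 7 cystine libraries, a ratio of 67.4 after scaling for depth (95% interval for counting error alone 18.4 to 560). The values on cystine were 20.7, 3.37, 1.74, 3.92, 0, 0.358 and 1.38 CPM in replicates 1 to 7, so replicate 1, a library of 4.11 M counts, holds the highest level. The counting interval leaves out this spread among libraries. Over the Lgr5-low libraries of both diets the mean of Retnlb was 2.29 CPM. It met the naming minimum of 2 CPM through the cystine mean of 4.49 CPM, beside 0.0846 CPM on control. The ratio of Retnlb therefore partly restates how the gene was chosen. The edgeR unadjusted p was 0.00110 and the adjusted p 1.0. In Lgr5-high cells the means of Retnlb were 0.114 CPM on control and 1.02 CPM on cystine (log2 fold change 2.85, edgeR unadjusted p = 0.0541).

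Pim1, a kinase gene that STAT3 induces, had the opposite sign (5.02 ± 2.14 against 1.72 ± 1.12 CPM, log2 fold change -1.52, unadjusted p = 0.0154, all 7 cystine libraries below the control median). Dmbt1, a mucosal scavenger protein named after its value was seen, stood at 1397 ± 208 and 1886 ± 547 CPM (0.43, unadjusted p = 0.0466). Of the 17 tested members of the interleukin 22 and STAT3 list, 10 were positive and 7 negative (median 0.04), with 0 past the threshold. The ligand and its receptor could not be followed. Il22 had 0 counts in all 14 libraries, which allows up to 0.0503 CPM on control and 0.0315 CPM on cystine. Il22ra1 had 10 counts in 2 control libraries and 2 counts in 2 cystine libraries (ratio 0.125, counting interval 0.0134 to 0.589). That interval leaves out the spread among libraries.

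Stem cell genes in the Lgr5-low gate were measured because some stem cells or their early progeny fall into it. Lgr5 itself stood at 0.337, 0.214, 4.09, 6.51, 6.06, 10.04 and 2.07 CPM in control replicates 1 to 7 and 10.9, 7.18, 6.94, 7.96, 8.32, 3.277 and 2.70 CPM in cystine replicates 1 to 7. The groups overlapped, and the means of 4.19 ± 3.61 and 6.76 ± 2.89 CPM gave a log2 fold change of 0.60 ± 0.42 (95% interval -0.24 to 1.44, unadjusted p = 0.158). Control replicates 1 and 2, both of the male class, were the lowest of all 14, and split by class the Lgr5 log2 fold changes were -0.13 (female) and 2.48 (male) (adjusted p = 0.979 and 0.573). Olfm4, a glycoprotein secreted at the crypt base, stood at 1210 ± 585 and 1315 ± 423 CPM (0.12, 95% interval -0.36 to 0.60), an interval that does not reach a 2-fold change in either direction.

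Of 26 tested stem cell genes, 18 were positive and 8 negative (median 0.10) and 0 passed the threshold. Lowest in p were Vdr, the vitamin D receptor (-0.32, unadjusted p = 0.0407), Ascl2, a transcription factor of stem cell identity (0.66, 0.0458), Phlda1 (1.17, 0.0461) and Znrf3, a ubiquitin ligase that removes Wnt receptors (1.283, 0.0462). Ascl2 measured 2.19 to 16.4 CPM on control and 6.66 to 18.4 CPM on cystine, and Znrf3 0 to 3.65 and 1.43 to 6.89 CPM, with overlap in both. Wnt targets, a list of 14 tested genes of which 8 are also in the stem cell list (Lgr5, Ascl2, Znrf3, Axin2, Rnf43, Sox9, Ephb2 and Ephb3), were 7 positive and 7 negative (median 0.08). Myc, the growth regulator among them, stood at 13.7 ± 4.64 and 20.6 ± 6.64 CPM (0.58, unadjusted p = 0.0249, 0.19 in the female class and 1.29 in the male class).

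Dividing cells are most of the early progeny, and their genes gave no common direction. Of 22 mitosis genes 14 were positive (median 0.09), and of 22 DNA replication genes 5 were (median -0.07), with 0 past the threshold in either list. Aurkb, a mitotic kinase, measured 16.2 ± 6.16 and 25.3 ± 5.72 CPM (0.63, unadjusted p = 0.0232) and Bub1b, a spindle checkpoint kinase, 17.0 ± 6.93 and 22.8 ± 5.54 CPM (0.42, 0.0951). Rfc4, a subunit of the clamp loader of DNA replication, measured 349 ± 124 and 255 ± 102 CPM (-0.45, 0.0300), and Mcm4, a helicase subunit, 19.7 ± 9.41 and 26.2 ± 7.56 CPM (0.42, 0.119).

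Cystine and cysteine transporters were measured with wide intervals. Of 9 tested cystine and cysteine transport genes 6 were positive (median 0.10), with 0 past the threshold and 0 with an unadjusted p under 0.05 in edgeR. Slc3a2, the heavy chain shared by several amino acid exchangers, ran from 31.4 to 57.1 CPM on control and from 24.1 to 105 CPM on cystine (0.35, 95% interval -0.29 to 0.999, unadjusted p = 0.273). Slc1a4, a neutral amino acid transporter, measured 1.44 ± 1.35 and 2.40 ± 1.61 CPM (0.78, 95% interval -0.73 to 2.29, unadjusted p = 0.302). Slc7a11, the cystine and glutamate exchanger, was under the count filter, with 2 counts in 2 control libraries and 59 counts in 3 cystine libraries (ratio 18.5, counting interval 4.90 to 156), so it is known from few libraries.

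Genes of cysteine breakdown lay on both sides of 0. Cdo1, the dioxygenase that commits cysteine to taurine and sulfate, stood at 21.4 ± 7.69 and 23.6 ± 6.78 CPM (0.15, 95% interval -0.34 to 0.64). In the list of cysteine catabolism and sulfide oxidation 6 of 13 members were positive (median -0.01), the lowest p belonging to Kyat1, a cysteine conjugate lyase (-0.51, 95% interval -1.62 to 0.60, unadjusted p = 0.358), and Got2, a mitochondrial transaminase (0.18, 0.361). In the methionine cycle and transsulfuration 6 of 13 were positive (median -0.02), with Ahcyl1, related to the enzyme that splits adenosylhomocysteine, at 0.25 (unadjusted p = 0.175).

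Glutathione genes also lay on both sides of 0. Gclc and Gclm encode the catalytic and the modifier subunit of the rate-limiting enzyme of glutathione synthesis. Gclc stood at 12.2 ± 5.68 and 10.02 ± 5.12 CPM (-0.27, 95% interval -1.08 to 0.54) and Gclm at 14.3 ± 5.15 and 13.7 ± 5.59 CPM (-0.06, 95% interval -0.71 to 0.59, and 0.34 within the male class). Of 20 glutathione and NRF2 genes 8 were positive (median -0.06). Abcc2, an exporter of glutathione conjugates, was at -0.55 (unadjusted p = 0.102) and Nfe2l2, the NRF2 gene itself, at 0.23 (119 ± 23.7 against 139 ± 19.7 CPM, unadjusted p = 0.138).

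Among 20 glutathione S-transferases 13 were positive (median 0.05), and Gstt1 had the lowest p. It measured 65.5, 41.8, 62.9, 44.9, 39.2, 33.2 and 63.7 CPM in control replicates 1 to 7 and 76.4, 83.4, 53.7, 50.1, 57.8, 64.9 and 97.6 CPM in cystine replicates 1 to 7, all 7 above the control median with overlap (0.46 ± 0.21 SE, unadjusted p = 0.0294). Its log2 fold change in Lgr5-high cells was -0.50 (unadjusted p of the difference = 0.00192, adjusted 1.0). Gsta4 was at -0.47 (unadjusted p = 0.190) and at 0.15 within the female class. Of 16 thioredoxin and peroxiredoxin genes 9 were positive (median 0.02), of 17 genes of coenzyme A synthesis and turnover 10 (median 0.08), and of 21 genes of iron-sulfur cluster assembly, which takes its sulfur from cysteine, 7 (median -0.05). None of these 3 lists held a member with an unadjusted p under 0.05. The lowest p of the coenzyme A list belonged to Pank4 (8.96 ± 4.67 against 4.95 ± 3.16 CPM, -0.84, 0.104) and to Slc5a6, a vitamin transporter that takes up the coenzyme A precursor pantothenate (0.82, 0.229).

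Chaperones of the heat shock response were mostly higher on cystine. Of 12 tested heat shock genes 10 were positive (median 0.27), with 0 past the threshold and 3 with an unadjusted p under 0.05. Over all genes tested 49.6% were positive and 2.97% had an unadjusted p under 0.05 in edgeR. Hspa8, the constitutive cytosolic Hsp70, ran from 1004 to 1992 CPM on control (median 1430) and from 1316 to 2536 CPM on cystine (median 2166), with 6 of 7 cystine libraries above the control median (0.53 ± 0.18 SE, unadjusted p = 0.00587). Dnaja1, its cochaperone, ran from 166 to 393 and from 241 to 611 CPM (0.63 ± 0.22, 0.00667). In both genes the cystine replicates 1 and 2 of the male class were the lowest of their group, and the log2 fold changes were 0.63 and 0.84 within the female class but 0.11 and -0.18 within the male class. Hspa1a, the stress-inducible Hsp70 and a near-identical copy of Hspa1b, stood at 0.292 ± 0.572 and 1.68 ± 2.15 CPM (unadjusted p = 0.0311), with the highest value, 6.45 CPM, in cystine replicate 2.

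Other stress and nutrient programmes had medians near 0. In the ATF4 and amino acid response 13 of 21 members were positive (median 0.09). Phgdh, the first enzyme of serine synthesis, measured 4.3 ± 3.32 and 7.98 ± 3.30 CPM (0.88, unadjusted p = 0.0440), while Trib3, a stress-induced pseudokinase, measured 2.06 ± 1.85 and 0.423 ± 0.571 CPM (-2.22, 0.0786). The unfolded protein response had 9 of 18 positive (median 0.003), with Manf, a secreted factor of the endoplasmic reticulum, at 0.27 (0.172) and Edem1, of glycoprotein quality control, at 0.55 (0.205). Chac1, the glutathione-degrading target of ATF4, had 0 counts in all 14 libraries, which allows up to 0.0503 CPM on control and 0.0315 CPM on cystine.

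Sterol synthesis leaned to lower values. Of 24 tested members 17 were negative (median -0.24, beside -0.004 over all genes and -0.18 for the same list in Lgr5-high cells), with 0 past the threshold and 2 below an unadjusted p of 0.05. Pmvk, phosphomevalonate kinase, measured 70.3 ± 22.1 and 49.8 ± 12.8 CPM (-0.50, unadjusted p = 0.0223). Fatty acid oxidation and ketogenesis had 16 of 25 negative (median -0.03), with Acadl, a long-chain acyl-CoA dehydrogenase, at 0.57 (25.8 ± 11.0 against 38.1 ± 8.61 CPM, 0.0462) and Angptl4, an inhibitor of lipoprotein lipase, at -1.21 (0.0629).

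Respiration and translation genes had medians near 0. Of 23 nuclear-encoded respiratory chain genes 7 were positive (median -0.03), of 13 mitochondrially encoded genes 4 (median -0.09), of 29 cytosolic ribosomal protein genes 21 (median 0.05) and of 8 translation elongation genes 6 (median 0.04). These 4 lists had 0 members past the threshold and 0 with an unadjusted p under 0.05 in edgeR. Of 13 circadian clock genes 7 were positive (median 0.21), with the transcription factor Clock at -0.48 (unadjusted p = 0.0949), and of 14 immediate early genes 7 (median -0.03), with Myc, described above, as the member of lowest p.

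Enterocyte genes were more often lower than higher. Of 30 brush border and digestion genes 24 were negative (median -0.22) and of 23 lipid absorption genes 18 (median -0.10), with 0 past the threshold. Slc34a2, a phosphate transporter, measured 15.2 ± 11.8 and 5.69 ± 6.85 CPM (-1.42, and -2.20 without cystine replicate 7, unadjusted p = 0.0941), and Slc2a5, the fructose transporter, 21.0 ± 15.1 and 9.75 ± 7.67 CPM (-1.10, 0.0977). Bco1, which cleaves carotenoids to vitamin A, ran from 3.26 to 23.7 CPM on control and from 0 to 5.89 CPM on cystine (-1.82, 0.0230). Abcg5, a sterol exporter, was at -0.36 (0.288). The summed level of the brush border list overlapped fully, from 1583 to 3866 CPM on control and from 1150 to 5238 CPM on cystine. The summed level of the lipid absorption list went the other way in its median, from 9372 CPM on control (4635 to 21046) to 14124 CPM on cystine (6444 to 33555), with overlap. Fabp1, a fatty acid binding protein of enterocytes named after its values were seen, measured 8908 ± 5714 and 12449 ± 7976 CPM (0.48, unadjusted p = 0.359). In bulk libraries fewer cells of a type and less RNA per cell cannot be told apart.

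Secretory cell genes are given by lineage, and differences between the lineages were not tested. Of 18 Paneth cell genes 17 were positive (median 0.29, 0.17 in Lgr5-high cells), though 0 had an unadjusted p under 0.05, and the summed level ran from 17408 to 101680 CPM on control and from 24831 to 109960 CPM on cystine. That level was higher in the female than in the male class on the control diet, a difference that was not tested. On control it was 80515 ± 23017 CPM in 4 female and 22773 ± 7587 CPM in 3 male libraries, which did not overlap. On cystine it was 78274 ± 26890 CPM in 5 female libraries, close to the female control mean, and 24831 and 52206 CPM in the 2 male libraries. There the classes overlapped, the lowest female library being at 35365 CPM. The class ranges of the goblet, tuft, stromal and endothelial, and pancreatic acinar lists did not overlap on control either, with the male class higher. The classes are also runs of consecutive replicate numbers, so class and replicate order cannot be told apart. The part of the unequal classes in the diet values was not tested. Paneth members include alpha-defensins, near-identical genes among which reads are shared by a model. Mmp7, the protease that activates defensins, measured 129 ± 61.5 and 186 ± 38.7 CPM (0.53, unadjusted p = 0.142), and Habp2, a serine protease, 7.83 ± 4.77 and 14.2 ± 7.43 CPM (0.82, 0.0843).

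Of 19 goblet cell genes 16 were negative (median -0.12), with Ramp1, a receptor subunit for the peptide CGRP, at 13.4 ± 8.16 and 6.65 ± 3.75 CPM (-1.02, unadjusted p = 0.0452) and Creb3l4, a secretory transcription factor, at -0.35 (0.175). Of 25 enteroendocrine genes 16 were negative (median -0.21). Cpe, which trims prohormones, measured 10.4 ± 5.76 and 4.08 ± 2.74 CPM (-1.32, 0.0491) and Sst, the hormone somatostatin, 29.5 ± 11.5 and 16.9 ± 4.84 CPM (-0.80, 0.0800), both with all 7 cystine libraries below the control median. Of 17 tuft cell genes 7 were positive (median -0.04), and the male libraries held the highest summed levels on both diets (357 to 507 against 190 to 340 CPM on control, 430 to 542 against 257 to 373 CPM on cystine). Ptgs1, the prostaglandin synthase COX-1, stood apart from them at 2.12 ± 1.35 and 7.03 ± 3.61 CPM (1.69 ± 0.61 SE, 0.00803, all 7 cystine libraries above the control median), whereas Trpm5, the tuft cell cation channel, was at 0.70 (0.310). With the Kupffer cell score in the model the value of Ptgs1 was 0.86 (unadjusted p = 0.171).

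Antigen presentation and interferon genes leaned lower. All 7 tested MHC class II genes were negative (median -0.34, 0.10 in Lgr5-high cells) and 19 of 25 interferon response and MHC class I genes (median -0.25), with 0 past the threshold and 0 with an unadjusted p under 0.05 in edgeR. H2-Ab1, a class II beta chain, measured 47.9, 42.0, 18.0, 58.5, 31.0, 87.5 and 32.6 CPM in control replicates 1 to 7 and 5.46, 24.2, 17.0, 33.9, 28.3, 26.8 and 65.6 CPM in cystine replicates 1 to 7 (-0.65, unadjusted p = 0.116). The second highest value of all 14 belonged to cystine replicate 7. H2-DMa, which loads class II peptides, was at -0.34 (0.169), Gbp7, a guanylate-binding protein, at -1.43 (0.1001) and Tap1, the peptide transporter, at -0.71 (0.148). Ido1, the interferon-induced tryptophan dioxygenase (chromosome 8, 24584136 to 24597009), measured 267, 46.3, 9.85, 17.6, 12.0, 44.8 and 18.4 CPM in control replicates 1 to 7 and 9.77, 10.1, 2.91, 10.3, 2.32, 1.59 and 32.9 CPM in cystine replicates 1 to 7. Control replicate 1 stood far above the rest, and the log2 fold change was -2.57 ± 0.85 (SE, unadjusted p = 0.00553) with it and -1.32 without it.

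**Figure D3:**
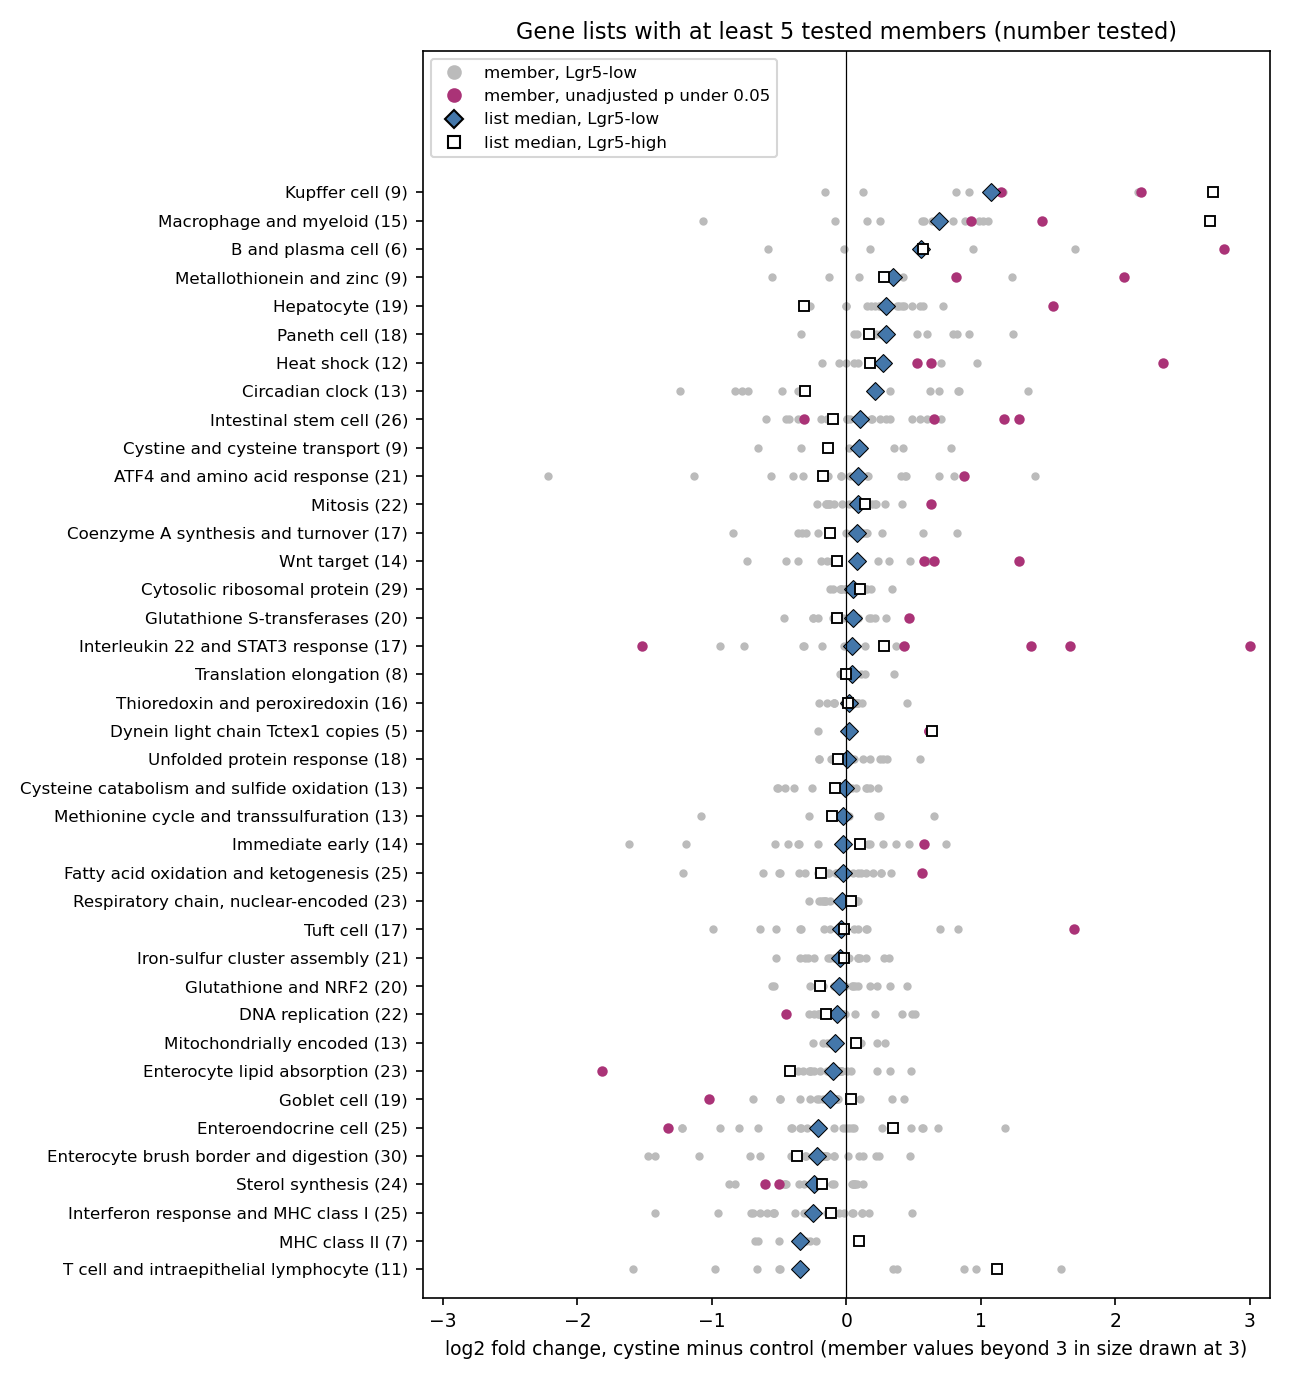
Gene lists with at least 5 tested members. Small points are the members' log2 fold changes in Lgr5-low cells, cystine minus control (x axis, values beyond 3 in size drawn at 3), coloured where the unadjusted p is under 0.05; diamonds are list medians in Lgr5-low and squares in Lgr5-high cells. Most medians lie within 0.35 of 0, and the Kupffer cell and macrophage lists have the highest medians in both populations, with larger values in Lgr5-high cells.

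Macrophage transcripts, which passed the test in Lgr5-high cells, were present at low levels in Lgr5-low cells. Of 9 tested Kupffer cell genes, known from the macrophages of the liver, 8 were positive (median 1.08 in Lgr5-low and 2.73 in Lgr5-high cells, where 4 passed), and of 15 macrophage and myeloid genes 13 were (median 0.69 and 2.71, where 7 passed). In Lgr5-low cells 0 passed in either list. The summed level of the Kupffer list ran from 31.1 to 78.6 CPM on control and from 40.0 to 79.2 CPM on cystine in Lgr5-low cells. In Lgr5-high cells it ran from 26.6 to 60.0 and from 15.9 to 360 CPM, where the lowest cystine library was replicate 1.

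Cd68, a lysosomal protein of macrophages (chromosome 11, 69664213 to 69666153), measured 11.8, 7.08, 10.2, 2.67, 5.50, 4.59 and 15.4 CPM in control replicates 1 to 7 and 15.8, 26.2, 7.67, 16.6, 7.74, 7.17 and 6.79 CPM in cystine replicates 1 to 7. The groups overlapped (log2 fold change 0.64 ± 0.43 SE, unadjusted p = 0.147), and the difference from the 3.02 of Lgr5-high cells was -2.38 ± 0.61 (unadjusted p = 0.000407, adjusted 0.726). Clec4f, a lectin of Kupffer cells, stood at 4.8 ± 3.85 and 10.3 ± 4.99 CPM (1.15, 0.0462, difference from Lgr5-high cells -1.83, unadjusted p = 0.0225). Aif1, a calcium-binding protein of macrophages, stood at 3.01 ± 2.32 and 7.92 ± 5.07 CPM (1.46, 0.0159), Timd4, a receptor for dying cells, at 0.239 ± 0.253 and 1.10 ± 0.683 CPM (2.19, 0.0223) and the folate receptor Folr2 at 2.84 ± 2.47 and 5.74 ± 3.39 CPM (1.08, 0.0472). The complement gene C1qa had 8 counts on control and 9 on cystine, Cx3cr1 1 and 3, and Ccr2 0 and 1.

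**Figure D4:**
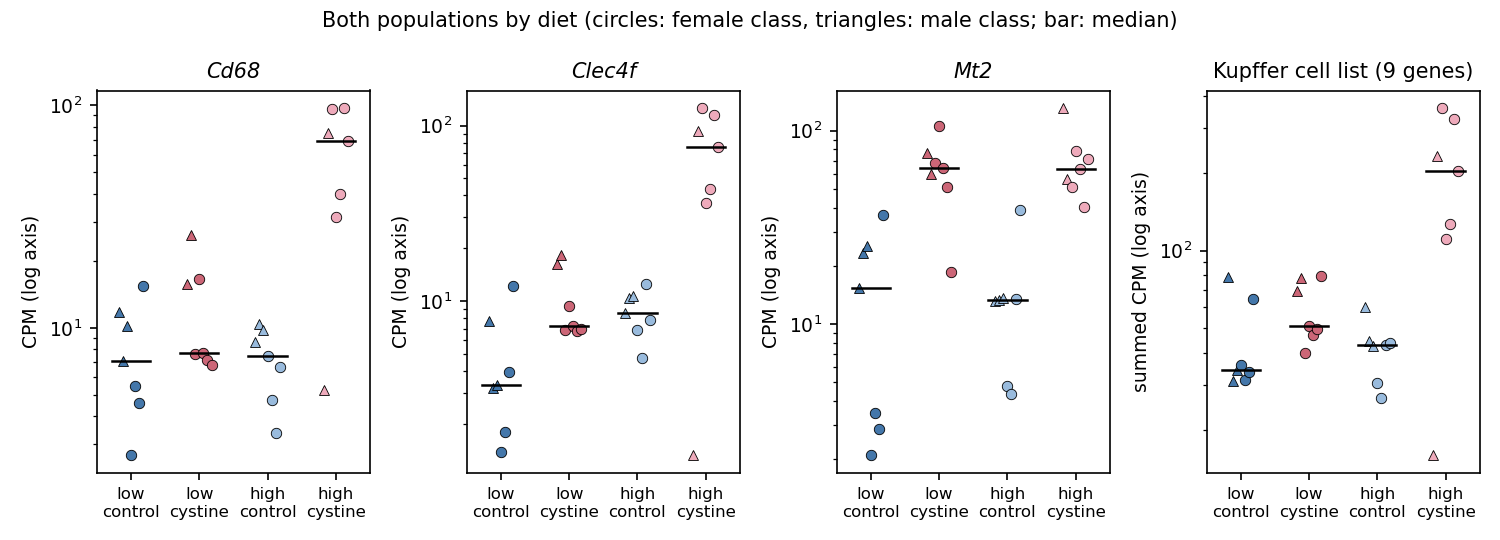
Cd68, Clec4f, Mt2 and the summed Kupffer cell list in all 28 libraries. Each point is a library (CPM, log axis) in the 4 groups of population and diet, circles for the female and triangles for the male class, and the bar is the median of 7 libraries. On the cystine diet 6 of 7 Lgr5-high libraries hold 31.4 to 97.3 CPM of Cd68 while Lgr5-low libraries hold 6.79 to 26.2 CPM, and the median of Mt2 is higher on cystine in both populations.

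Plasma proteins of the liver leaned the same way. Of 19 hepatocyte genes, all of them tested, 18 were positive (median 0.30, and -0.32 in Lgr5-high cells), with 0 past the threshold, and the summed level ran from 1007 to 2215 CPM on control and from 1087 to 3063 CPM on cystine. Mup20, a major urinary protein made by the liver (chromosome 4, 62050234 to 62054158), measured 134, 89.4, 53.6, 32.0, 32.6, 27.6 and 90.0 CPM in control replicates 1 to 7 and 290, 308, 114, 269, 170, 88.2 and 92.3 CPM in cystine replicates 1 to 7. All 7 cystine libraries lay above the control median with overlap (1.54 ± 0.44 SE, unadjusted p = 0.00183), and the value was 0.997 with the Kupffer cell score in the model. Mup20 belongs to a family of similar genes, and how reads were shared among them was not checked. The male class had higher Mup20 means than the female class, at 92.2 against 45.6 CPM on control and 299 against 147 CPM on cystine. Fgb, the fibrinogen beta chain, was at 28.1 ± 15.9 and 46.0 ± 23.5 CPM (0.72, 0.0594). The part of Kupffer cell and hepatocyte RNA in the results on other genes was not tested. The Kupffer cell score is made of genes that were themselves mostly higher on cystine. With it, RNA of such cells and a shared response to the diet cannot be told apart, and no hepatocyte score was fitted.

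Lymphocyte transcripts were scarce. Of 23 T cell and intraepithelial lymphocyte genes 11 were tested, 5 positive and 6 negative (median -0.34), and their summed level ran from 15.5 to 159 CPM on control and from 20.1 to 160 CPM on cystine. Lck, a T cell receptor kinase, measured 1.78 ± 1.37 and 0.592 ± 0.482 CPM (-1.59, unadjusted p = 0.0918) and Cd8a, a chain of the CD8 coreceptor, 0.305 ± 0.593 and 1.03 ± 1.34 CPM (1.60, 0.255, and 0.81 without cystine replicate 4 or 2.89 without control replicate 6). Cd3e had 8 counts on control and 14 on cystine, and Cd4 had 0 counts in all 14 libraries. Of 6 tested B and plasma cell genes 4 were positive (median 0.56). Igha, the constant region of immunoglobulin A, measured 0.581 ± 0.443 and 4.17 ± 5.37 CPM (2.81, 0.00651, and 1.93 without cystine replicate 6), highest in that library at 15.3 CPM, which was also highest in Jchain, the joining chain, at 8.71 CPM. Ms4a1 and Tnfrsf17, defining genes of B and plasma cells, had 0 counts in all 14 libraries. The 3 tested erythrocyte genes and 2 tested pancreatic acinar genes were positive (medians 1.04 and 1.284) and the 3 stromal and endothelial genes had a median of -0.002. These 3 lists had 0 members with an unadjusted p under 0.05, and Col1a1 had 0 counts.

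The genes that the naming rule took for their low p, beyond the groups above, came from unrelated functions. Cabcoco1 (chromosome 10, 68430953 to 68541896), a calcium-binding coiled-coil protein, measured 3.71, 4.93, 4.24, 6.15, 6.40, 2.18 and 0.592 CPM in control replicates 1 to 7 and 24.4, 11.1, 11.3, 4.68, 7.82, 10.04 and 15.2 CPM in cystine replicates 1 to 7. All cystine libraries but replicate 4 lay above every control library (1.53 ± 0.36 SE, edgeR adjusted p = 0.598, DESeq2 adjusted p = 0.0379). In Lgr5-high cells the log2 fold change was -0.05 (unadjusted p of the difference = 0.00312). Between the populations, Lgr5-low minus Lgr5-high, the log2 fold change of Cabcoco1 was -2.50 on the control and -0.92 on the cystine diet (adjusted p = 0.000142 and 0.167).

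Ide, the insulin-degrading enzyme (chromosome 19, 37268743 to 37337852), measured 13.8, 6.86, 9.69, 11.9, 12.5, 13.3 and 7.70 CPM in control replicates 1 to 7 and 19.2, 33.4, 26.5, 14.5, 18.2, 14.6 and 21.4 CPM in cystine replicates 1 to 7. The groups did not overlap, and the log2 fold change was 0.95 ± 0.25 (SE, 95% interval 0.45 to 1.46, edgeR adjusted p = 0.648, DESeq2 adjusted p = 0.0379). Skap2, an adaptor of Src family kinases, did not overlap either. It measured 26.8, 35.6, 36.4, 37.9, 31.9, 40.1 and 21.9 CPM in control replicates 1 to 7 and 52.3, 53.2, 48.8, 54.0, 49.7, 43.4 and 43.4 CPM in cystine replicates 1 to 7 (0.57 ± 0.18, unadjusted p = 0.00248). The others with positive values were Mterf3, a factor of mitochondrial ribosome assembly (7.56 ± 2.77 against 15.9 ± 7.75 CPM, 1.06), Mrrf, the mitochondrial ribosome recycling factor (22.6 ± 9.43 against 36.7 ± 6.17 CPM, 0.70), and Sting1, the sensor adaptor of cytosolic DNA (2.54 ± 2.21 against 7.07 ± 3.33 CPM, 1.45). Each of these 3 had all 7 cystine libraries above the control median, which largely restates their choice by low p.

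Among genes with negative values, Garnl3, a GTPase-activating protein domain gene (chromosome 2, 32986224 to 33131654), measured 8.27, 7.5, 8.03, 6.20, 6.85, 6.62 and 4.15 CPM in control replicates 1 to 7 and 1.15, 2.93, 1.01, 1.96, 1.45, 2.51 and 3.46 CPM in cystine replicates 1 to 7. The groups did not overlap (-1.71 ± 0.43 SE, edgeR adjusted p = 0.598, DESeq2 adjusted p = 0.000156). Its log2 fold change in Lgr5-high cells was -1.64 (adjusted p = 0.146), and the difference of -0.06 was within its error. The coiled-coil gene ccdc198 (chromosome 14, 49219588 to 49245474) measured 56.2, 65.8, 41.4, 35.0, 18.7, 41.5 and 19.9 CPM in control replicates 1 to 7 and 15.5, 12.3, 16.9, 10.7, 18.2, 11.9 and 23.4 CPM in cystine replicates 1 to 7. The overlap came from cystine replicate 7 and control replicates 5 and 7 (-1.35 ± 0.31, edgeR adjusted p = 0.598, DESeq2 adjusted p = 0.0495).

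Osr2, a zinc finger transcription factor (chromosome 15, 35296098 to 35303305), had 206 counts over 6 control libraries and 12 over 4 cystine libraries (ratio 0.0365, counting interval 0.0186 to 0.0652). The control values were 0, 0.858, 1.97, 3.03, 1.35, 2.49 and 22.8 CPM in replicates 1 to 7, so replicate 7 held most of the level, and no cystine library exceeded 0.569 CPM. The counting interval leaves out this spread among libraries. Over the Lgr5-low libraries of both diets the mean of Osr2 was 2.38 CPM. It met the naming minimum of 2 CPM through the control mean of 4.64 CPM, beside 0.115 CPM on cystine. The ratio of Osr2 therefore partly restates how the gene was chosen. The log2 fold change was -5.12 ± 1.3 (SE, edgeR adjusted p = 0.598, DESeq2 adjusted p = 0.0174), with a value of 0.12 in Lgr5-high cells. Without control replicate 7 the edgeR value of Osr2 was -3.64, and without cystine replicate 4 it was -6.57.

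Rbp7, a retinol-binding protein (chromosome 4, 149449687 to 149454978), measured 1137, 672, 467, 559, 563, 465 and 416 CPM in control replicates 1 to 7 and 373, 210, 280, 413, 304, 347 and 416 CPM in cystine replicates 1 to 7. Only control replicate 7 and cystine replicate 7 touched (-0.87 ± 0.27 SE, unadjusted p = 0.00273). Dhrs7, a short-chain dehydrogenase, likewise overlapped at 1 library, with 85.6 to 136 CPM on control and 58.5 to 87.4 CPM on cystine (-0.53, 0.00121). Values for the others were -1.21 for Sycn, a secretory granule protein of zymogen cells (14.2 ± 7.46 against 5.998 ± 2.35 CPM), -0.62 for Btg1, an antiproliferative factor (59.8 ± 11.4 against 38.8 ± 7.03 CPM), -0.79 for Frat2, a GSK3-binding protein (34.9 ± 7.67 against 20.04 ± 6.88 CPM), and -1.16 for Rbbp9, a serine hydrolase (10.9 ± 5.85 against 4.77 ± 2.54 CPM). In each of these 4 all 7 cystine libraries lay below the control median, which again largely restates their choice by low p.

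The 5 remaining genes without overlap were looked up after their values were seen. Fyn, a Src family kinase, stood at 0.0592 ± 0.0891 and 0.843 ± 0.463 CPM, Ms4a6b at 0.145 ± 0.149 and 1.199 ± 0.925 CPM and Zfp335, a zinc finger protein, at 0.598 ± 0.267 and 2.57 ± 1.84 CPM, all higher on cystine and all at low levels. Kansl2, a subunit of a histone acetyltransferase complex, ran from 20.3 to 36.2 CPM on control and from 6.74 to 20.2 CPM on cystine. Aldh6a1, of valine breakdown, ran from 7.505 to 11.8 and from 4.61 to 7.12 CPM.

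Genes with the lowest p for the difference between the populations were Rgcc, a cell cycle regulator (0.84 in Lgr5-low and -1.25 in Lgr5-high cells, unadjusted p of the difference = 0.000687), Orm1, the acute-phase protein orosomucoid (1.27 and -1.0, 0.000975), and Fam98b (0.33 and -0.93, 0.00264) in the positive direction, with Gstt1 and Cabcoco1 as above. In the negative direction they were Clta, the clathrin light chain (-0.50 and 0.61, 0.000223), Srgn, a proteoglycan of blood cell granules (-0.67 and 2.44, 0.00232), Fcer1g, the Fc receptor gamma chain (0.93 and 2.97, 0.00124), Tyrobp, a myeloid signalling adaptor (0.56 and 3.08, 0.00153), and Cd68. None of these 10 differences passed in edgeR, where the lowest adjusted p was 0.493. Clta measured 72.0, 112, 88.1, 64.4, 84.9, 84.6 and 96.3 CPM in control replicates 1 to 7 and 61.8, 57.7, 67.3, 62.1, 59.0, 61.3 and 56.2 CPM in cystine replicates 1 to 7, so that all 7 cystine libraries lay below the control median and only cystine replicate 3 lay above the lowest control library.

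The Tctex1 dynein light chain copies on chromosome 17 had been among the few genes called in Lgr5-high cells (Dynlt1b, log2 fold change 1.299, adjusted p = 0.00625). In Lgr5-low cells Dynlt1b (6430112 to 6436296) ran from 147 to 322 CPM on control and from 189 to 618 CPM on cystine (0.62 ± 0.23 SE, unadjusted p = 0.0107), and Dynlt1a (6306340 to 6317500) from 70.9 to 184 and from 119 to 317 CPM (0.61 ± 0.22, 0.00728). Control replicates 1 to 3, the male class, were the highest controls of Dynlt1b. Within the female class the log2 fold changes were 0.57 for Dynlt1b and 0.75 for Dynlt1a (adjusted p = 0.279 and 0.226). Dynlt1c, named after its value was seen, was at 0.02 with a sign that turned in several fits. Reads are shared among these near-identical copies by a model, so their separate levels are uncertain.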

How the data were processed

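The values are estimated counts per gene that the authors deposited as whole numbers, made with Salmon 1.3.0 and the mouse build mm10, per the submitters' processing notes. The annotation they used is not given in the sources used here. Groups were taken from the labels. Over 42 pairs of replicates, chi-square per gene was 28.7 to 177, so no library was counted as deposited more than once. From 54354 genes, 12495 passed edgeR's filter on low counts (filterByExpr). The 1243 genes without a symbol held 0.00328 to 0.0111% of a library's counts.

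One edgeR quasi-likelihood model (edgeR 4.0.16, R 4.3.3, TMM scaling, robust) held all 28 libraries with a mean per group. Tests were two-sided, with a Benjamini-Hochberg adjustment over all genes tested and a threshold of 0.05. Levels are CPM. The common biological coefficient of variation was 0.629. Alternatives used DESeq2 1.42.0, limma 3.58.1 (voom with sample quality weights), other scalings and filters, a sex class from Xist (above 50 CPM), a score of 9 Kupffer cell genes, and each library left out. Intervals of count ratios and the floor of 3 counts cover counting error only. The fit was tested on simulated counts with large changes planted in the Lgr5-low cystine group, and smaller changes were not simulated.

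Named genes were, per direction, the 10 of lowest p with a mean of at least 2 CPM, from each list the 2 to 4 members lowest in p, the Lgr5-low minus Lgr5-high differences of lowest p (5 per direction), and a set of 9 (Lgr5, Olfm4, Il22ra1, Slc7a11, Cdo1, Gclc, Gclm, Cd68, Clec4f). Predicted genes, pseudogenes and genes of the sex chromosomes were counted and not named, and a few genes that the rule takes are not reported here. The genes and lists were chosen with earlier results of these data known. For genes named for a low p, the side of the control median on which their cystine libraries lay largely restates that choice. It adds no separate support. Coordinates are GENCODE M21 (GRCm38), matched for 94.8% of the gene identifiers, and promoter sequences are RefSeq's.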

Additional observations from a re-analysis of the deposited data

Results flagged for a closer look

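Among the 96 genes checked in both diets of Lgr5-low cells, 19 of 192 groups of 7 libraries held 1 library whose gap to the next was past Dixon's 95% critical value. Chance gives this to about 1 group in 20 for continuous values. Some flagged groups lie at or near 0 counts, such as Retnlb on control with 6 libraries at 0. The 19 are therefore not to be set against that rate. Cystine replicate 1, of 4.11 M counts, was the flagged library in 9 of the 19 groups. It was the lowest cystine library for Frat2 at 6.89 CPM, Rbbp9 at 0.575 CPM, Gclc at 0.575 CPM, Gbp7 at 0.287 CPM and Angptl4 at 0 CPM. It was the highest cystine library for Mt1 at 1585 CPM, Fam98b at 66.1 CPM, Habp2 at 30.7 CPM and Rfc4 at 482 CPM.

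Cystine replicate 7 was lowest for Mt2 at 18.6 CPM and highest for Gsta4 at 82.4 CPM, and cystine replicate 4 was highest for Osr2 at 0.569 CPM. Among control libraries, replicate 7 was highest for Retnlb at 0.593 CPM and lowest for Garnl3 at 4.15 CPM and Phlda1 at 0 CPM. Control replicate 1 was lowest for Rgcc at 0.337 CPM and Myc at 4.89 CPM, replicate 2 for Mterf3 at 2.57 CPM and replicate 3 for Tap1 at 3.18 CPM.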

How the results depend on the processing

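No Lgr5-low gene passed when any 1 of the 14 libraries was left out (0 to 0 genes), under other scalings and filters, with the sex term or with either Kupffer score. Counts that moved were 10 with DESeq2, 1 with limma-voom, 3 in the male class and 1 with the limma block by diet and number (this block and the 5-gene Kupffer score were added after seeing the data). For Lgr5-high cells (21) the count was 123 with DESeq2, 40 in the female class, 38 with limma-voom, 37 with the compared groups alone, 41 with the sex term and 34 with the limma block. For the difference (0) it was 6 with limma-voom, 6 with the limma block and 1 without libraries under 5 M counts. The log2 difference in depth lay between 0.49 and 0.96 with 1 library left out. With the replicate block 0 Lgr5-low genes, 19 Lgr5-high genes and 0 differences passed, but same-numbered libraries of the diets correlated between -0.142 and 0.193, so the numbers are not taken as pairs. Across the populations they correlated between -0.142 and 0.344 (10 of 14 over 0.1), 14 of 14 shared the sex class and 7 of 14 Lgr5-low libraries correlated best with their own number, a hint of pairing that the labels do not give.

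Values that changed sign were Dynlt1c (-0.0028 with DESeq2, -0.0032 with RLE, -0.00036 with the compared groups, -0.0062 with the macrophage score, -0.028 with the 5-gene score, -0.23 without small libraries, -0.17 to 0.19 with 1 library left out) and Trpm5 (-0.066 with limma-voom, -0.040 with the limma block). In the female class they were Gsta4 (0.15) and Lgr5 (-0.13), and in the male class Dnaja1 (-0.18), Gclm (0.34), Manf (-0.63), Mtf1 (0.20), Olfm4 (-0.19) and Srgn (0.21). With the macrophage score Cd68 was at -0.26, Slc3a2 at -0.14 and Tyrobp at -0.52. With the 5-gene score Cd68 was at -0.38, Slc3a2 at -0.12 and Tyrobp at -0.72, Clec4f at -0.064 and Folr2 at -0.082. That score is the mean of Clec4f, Vsig4, Cd5l, Timd4 and Folr2. The fall of Clec4f and Folr2 towards 0 was therefore built into that fit and is not a result. Without small libraries Fam98b was at -0.042 and Gclm at 0.25. Gclm ran from -0.23 to 0.070 with 1 library left out. The cause was not tested. Of 103 named genes 87 kept their sign in every fit made, with Clec4f and Folr2 counted among those that did not.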
